A study of Saccharomyces cerevisiae with 279 samples.

Results

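The enzymes that clear superoxide and peroxides from a budding yeast cell were followed through every stress of the series as 10 mRNAs: the catalase CTT1, the superoxide dismutases SOD1 and SOD2, the peroxiredoxins TSA1, TSA2, AHP1 and PRX1, and the glutathione peroxidase family members GPX1, GPX2 and HYR1. They were chosen by gene name, with no measured value in the rule but with earlier results of these data known. All 10 were found among the 5906 mRNAs of the deposited tables. Superoxide dismutases turn superoxide into hydrogen peroxide and oxygen, with SOD1 the main copper and zinc enzyme of the cytosol and SOD2 the manganese enzyme of the mitochondrial matrix. Catalase splits hydrogen peroxide into water and oxygen, while peroxiredoxins reduce it, and organic peroxides, with a reactive cysteine that the thioredoxin system restores. In yeast the transcription factor Yap1 turns on many of these genes when peroxide accumulates, and Msn2 and Msn4 turn on a wider set, CTT1 included, under heat, osmotic and other stresses. In the tables' own annotation 7 of the 10 members (all but TSA1, GPX2 and HYR1) carried the label of Msn2 and Msn4 targets, a label held by 196 of 5137 annotated mRNAs (3.82%).

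All 10 are nuclear genes of the R64 assembly. CTT1 (YGR088W) lies on chromosome VII at 654634 to 656322 on the plus strand, SOD1 (YJR104C) on chromosome X at 622550 to 623014 on the minus strand, and SOD2 (YHR008C) on chromosome VIII at 122889 to 123590 on the minus strand. TSA1 (YML028W, chromosome XIII, 220138 to 220728, plus) and TSA2 (YDR453C, chromosome IV, 1365072 to 1365662, minus) encode closely related cytosolic peroxiredoxins. AHP1 (YLR109W, chromosome XII, 368781 to 369311, plus) encodes a peroxiredoxin that favours alkyl hydroperoxides, and PRX1 (YBL064C, chromosome II, 100371 to 101156, minus) the mitochondrial one. GPX1 (YKL026C, chromosome XI, 389380 to 389883, minus) and GPX2 (YBR244W, chromosome II, 707528 to 708016, plus) encode peroxidases of phospholipid hydroperoxides, and HYR1 (YIR037W, chromosome IX, 423128 to 423619, plus), also called GPX3, encodes the peroxidase that senses hydrogen peroxide and oxidizes Yap1. The member mRNAs were short, at 584 to 1800 bases with a median of 741.5, against a median of 1517 over the 5137 mRNAs with a length. CTT1 stood at length percentile 61.7, and the other members between percentiles 6.89 and 22.3.

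The series held 279 libraries from 91 lysates, of which 77 went through Sed-seq and 14 through Polysome-seq. In Sed-seq a lysate treated with EDTA was spun at 20000 g for 10 min, and Total, supernatant and pellet RNA were sequenced. The proportion of an mRNA in the supernatant, pSup, falls as the mRNA condenses into particles that sediment. In Polysome-seq Total, ribosome-free and ribosome-bound RNA were sequenced from a gradient, with monosomes and polysomes kept apart in the heat experiment and all bound fractions pooled in azide and ethanol, and occupancy is the share of an mRNA found in ribosome-bound fractions. Cells of the strain BY4741 were heated for 10 min at 42°C or 46°C against 30°C (Sed-seq of a cell pellet in a water bath, with a second experiment at 46°C that carried a spike-in, and Polysome-seq in pre-warmed medium). BY4741 also received sodium azide at 0.5% or 0.8% for 30 min, ethanol at 5%, 7.5%, 10% or 15% for 15 min, or DTT at 10 mM for 15 min, each against a mock treatment at 30°C. Cycloheximide at 100 µg/mL, which stalls elongating ribosomes, was given before 10 min at 30°C or 46°C, against mock-treated cells at the same temperature. The strains yJB042 and yHG038 carry degron-tagged eIF3b (PRT1) and eIF4E (CDC33) with an OsTIR1 ligase under a β-estradiol-inducible promoter. They were depleted in YPD with β-estradiol and then auxin for 2 h before 30°C, 42°C or 46°C, against mock cells given DMSO. Loss of the factor and the added compounds thus cannot be told apart. Each group had 2 lysates, except 7 reporter strains at 30°C, 4 of them with a hairpin in the reporter's leader, and the cycloheximide experiment at 42°C, with 1 lysate per group and so no test.

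Total abundance is given per lysate as TPM, a share of the library's transcripts that is corrected for length, so levels of different genes can be set side by side. The tests of abundance are edgeR log2 fold changes, scaled so that the typical mRNA sits near 0. The median mRNA's TPM ratio lay between 0.70 below its edgeR fold change (heated Polysome-seq cells at 42°C) and 0.76 above it (eIF3b depletion at 46°C), so each place where a called member had the other sign on the TPM scale is named. A member was called at an adjusted p under 0.05 over all mRNAs tested. These p-values rest on groups of 2 lysates. The spread of an mRNA was pooled over all groups of its experiment and drawn towards that of other mRNAs. For 2 against 2 lysates an exact permutation test cannot give a p below 0.333. In bulk lysates a shift in the RNA per cell cannot be told apart from a shift in one mRNA's share.

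In unstressed BY4741 cells the family ran from among the most abundant mRNAs to among the scarce ones. Over 18 lysates at 30°C from 9 experiments, AHP1 had a median of 3075 TPM and TSA1 a median of 3145 TPM, at percentiles 99.4 and 99.3 of mean abundance among 5892 mRNAs. Next came SOD1 with a median of 581 TPM, and then SOD2 (226 TPM), HYR1 (213 TPM) and TSA2 (204 TPM), whose ranges overlapped. GPX2 had a median of 81 TPM and PRX1 of 61.9 TPM, also with overlapping ranges. CTT1 had a median of 24.4 TPM, at percentile 60, and GPX1, at percentile 16.6, the lowest median of the family at 9.19 TPM. GPX1 was read from 8 to 267 estimated counts in a Total library (median 53 over the 77 Sed-seq lysates), so its values are the least precise of the family.

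The steadiest member between experiments was AHP1, at 2594 to 4232 TPM over those 18 lysates, and the least steady TSA2, at 10.7 to 431 TPM. The ratio of TSA1 to TSA2, which encode near-identical enzymes, had an experiment median of 7.19 in the reporter strains, 9.23 in heated Polysome-seq, 111.7 in the heat Sed-seq experiment and 232 in the azide Polysome-seq. TSA2 thus sat low in some experiments in treated and control lysates alike, and the 2 azide experiments at 0.8% were low in both assays. What set these levels was not tested. The estimated counts of all 10 members were whole numbers in 279 of 279 libraries (within 0.001), the form they take where no read is split between similar mRNAs. Among all 5906 mRNAs 544 had a fractional count, so most others had whole counts too. How this bears on the TSA1 and TSA2 levels was not tested. Every test that follows was made within 1 experiment.

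CTT1, the cytosolic catalase, had the widest span of levels. Over 24 BY4741 groups its mean ranged from 3.93 TPM in 0.8% azide to 474 TPM in 5% ethanol, a 121-fold span, against 39.6-fold for TSA2, 13.7-fold for GPX1, 6.85-fold for PRX1, 5.85-fold for SOD2 and 1.85-fold for AHP1. These spans take in the differences between experiments, since CTT1 in mock cells at 30°C ran from 4.65 to 89.4 TPM over the lysates. In the heat Sed-seq experiment CTT1 had 6.25 and 5.32 TPM at 30°C, 24.2 and 28.7 TPM at 42°C, and 6.53 and 4.81 TPM at 46°C. The 42°C lysates stood apart from the others, and the 46°C lysates overlapped those at 30°C. At 42°C against 30°C CTT1 rose by 2.28 ± 0.14 (log2, SE; edgeR adjusted p = 5.13e-06), and at 46°C against 42°C it fell by 2.29 ± 0.14 (adjusted p = 6.03e-06). In Polysome-seq, where cells were heated in medium, CTT1 had 13 and 15.1 TPM at 30°C, 552 and 538 TPM at 42°C, and 20.7 and 36.5 TPM at 46°C. Here the 46°C lysates also lay above both at 30°C. The rises were 5.98 ± 0.29 at 42°C (adjusted p = 3.52e-07) and 1.28 ± 0.25 at 46°C (adjusted p = 0.00487; 0.0513 without the 30°C replicate 1). The difference between the heating methods was not tested.

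Ethanol moved CTT1 in both directions. It had 87.8 and 89.4 TPM in mock cells, 428 and 519 TPM in 5% ethanol, and 10.3 and 11.9 TPM in 10% ethanol, with no overlap between any of these groups. Against the shared mock lysates it rose by 2.59 ± 0.09 at 5% (adjusted p = 1.35e-10) and fell by 2.79 ± 0.09 at 10% (adjusted p = 1.27e-09). In 15% ethanol CTT1 had 24.3 and 23 TPM, against 23.3 and 23 TPM in mock cells, which overlapped. At 7.5% it had 35.6 and 53.3 TPM, against 77.7 and 66.4 TPM in mock cells, and the edgeR change of -0.24 ± 0.16 was not called (adjusted p = 0.228). In the Polysome-seq experiment at 7.5% it had 44.7 and 54.3 TPM, against 28 and 18.1 TPM in mock cells, and rose by 1.44 ± 0.17 (adjusted p = 0.000133). Between the 7.5% experiments the ethanol lysates overlapped and the mock lysates did not, and the difference between the experiments was not tested.

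Azide, an inhibitor of cytochrome oxidase, gave CTT1 15.3 and 12.4 TPM at 0.5%, against 5.27 and 5.46 TPM in mock cells. The groups did not overlap and CTT1 rose by 1.24 ± 0.13 (adjusted p = 1.4e-05). At 0.8% it had 3.76 and 4.10 TPM, against 4.65 and 5.08 TPM in mock cells, a change of -0.17 that was not called (adjusted p = 0.319). In the Polysome-seq experiment at 0.8% it had 4.21 and 3.87 TPM, against 5.36 and 6.21 TPM, and fell by 0.41 ± 0.12 (adjusted p = 0.0157; 0.153 without mock replicate 2). DTT, which reduces disulphide bonds, left CTT1 at 9.50 and 8.55 TPM, against 25.4 and 23.4 TPM in mock cells, a fall of 1.71 ± 0.08 (adjusted p = 3.88e-08). Unlike most of the family, CTT1 had more TPM after loss of either initiation factor: 43.8 and 46.6 TPM after eIF3b depletion at 30°C, against 7.52 and 8.15 TPM in mock cells, and 21.1 and 17 TPM after eIF4E depletion, against 10.4 and 7.87 TPM. The rises were 1.82 ± 0.18 (adjusted p = 1.85e-06) and 0.88 ± 0.18 (adjusted p = 0.000948).

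**Figure D1:**
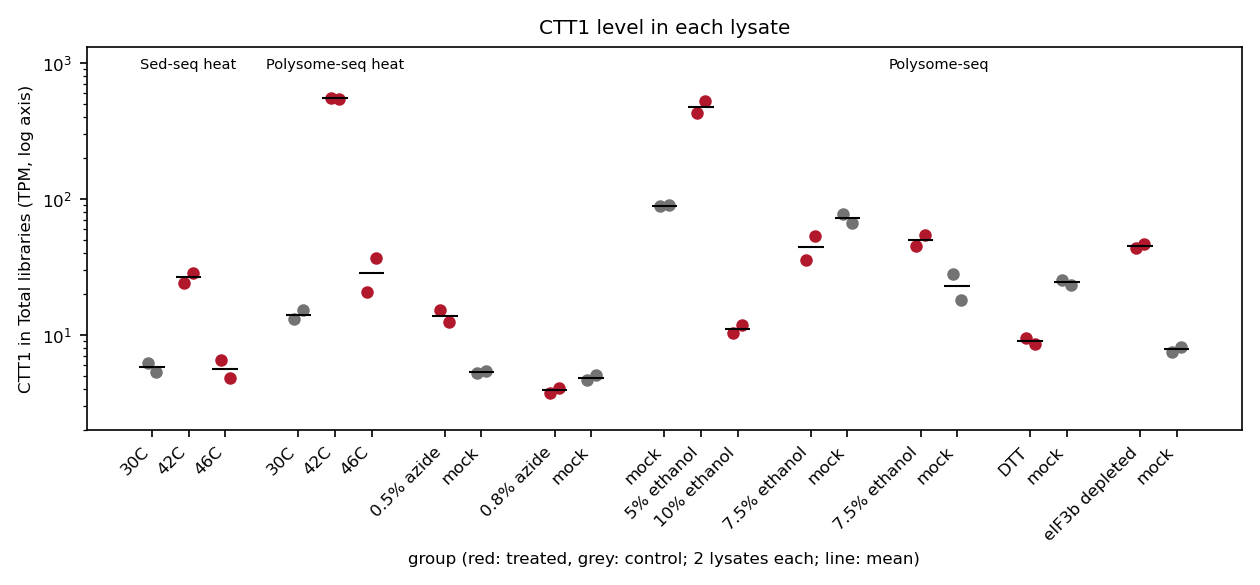
CTT1 abundance in TPM (log axis) for each lysate by experiment, with treated or depleted lysates in red, their controls in grey and a line at the mean of the 2 lysates. In 5% ethanol CTT1 reached 428 and 519 TPM, and in medium heated to 42°C it reached 552 and 538 TPM.

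In the first heat experiment by Sed-seq few other members were called. The member median at 42°C against 30°C was 0.15, against -0.01 over all mRNAs. At 42°C against 30°C, 2 of the 10 members rose and none fell, against 7.23% of all mRNAs called in either direction. The other was AHP1, with 2810 and 2857 TPM at 42°C, against 2702 and 2771 TPM at 30°C, a rise of 0.14 ± 0.03 (adjusted p = 0.037) that was lost without any 1 of the 4 lysates (adjusted p from 0.0506 to 0.304). TSA1 had 1322 and 1346 TPM at 42°C, against 1239 and 1314 TPM at 30°C, and its change of 0.15 was called only with the replicate number as a block (adjusted p = 0.0447; 0.186 without it). At 46°C against 30°C edgeR called none of the 10, where 0.44% of all mRNAs were called and 0 members had an unadjusted p under 0.05. At 46°C against 42°C, 2 members fell (5.98% of all mRNAs called): CTT1, and GPX1, which had 3.65 and 3.03 TPM at 46°C, against 6.59 and 6.84 TPM at 42°C, a fall of 1.07 ± 0.23 (adjusted p = 0.0246). That GPX1 call was lost without either 42°C replicate or without 46°C replicate 2 (adjusted p up to 0.196).

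The second experiment at 46°C called 5 members, against 28% of all mRNAs. SOD2 had 292 and 290 TPM at 46°C, against 358 and 364 TPM at 30°C, and fell by 0.25 ± 0.04 (adjusted p = 1.86e-06). TSA2 fell by 0.29 ± 0.04, with 332 and 336 TPM at 46°C, against 422 and 431 TPM at 30°C (adjusted p = 1.07e-07). GPX1 had 7.10 and 5.84 TPM at 46°C, against 16.5 and 12.4 TPM at 30°C, and fell by 1.1 ± 0.17 (adjusted p = 4.99e-06). These 3 did not overlap between the temperatures. AHP1 (0.15 ± 0.04) and TSA1 (0.12 ± 0.04) rose by small amounts, of which AHP1 was lost without 46°C replicate 1 (adjusted p = 0.0546) and TSA1 without that lysate, 46°C replicate 2 or 30°C replicate 1 (adjusted p up to 0.316).

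GPX1 was also lower after heat in the mock arms of the other Sed-seq experiments. It had 6.20 and 8.41 TPM at 46°C, against 17.1 and 20.2 TPM at 30°C, in the mock arm of the cycloheximide experiment, and 4.59 and 4.96 TPM, against 7.82 and 13.6 TPM, in the mock arm of the eIF3b strain. Without the replicate block neither was called, and with it, where same-numbered lysates deviated together, both were (adjusted p = 0.0122 and 0.0264). With that block TSA2 also fell at 46°C in both mock arms (adjusted p = 0.00103 and 0.00748) and at 42°C in the eIF3b mock arm (adjusted p = 0.00478), and PRX1 in the cycloheximide mock arm (adjusted p = 0.0243) and CTT1 in the eIF3b mock arm (adjusted p = 0.001) at 46°C. Without it edgeR called no member in these 3 arms, against 0.991%, 1.38% and 0.976% of all mRNAs, with 2 to 3 members in each at an unadjusted p under 0.05, while DESeq2 called 1 at 42°C and 2 at 46°C in the eIF3b mock arm. In the mock arm of the eIF4E strain GPX1 fell by 1.63 ± 0.39 at 42°C (adjusted p = 0.0476), the only one of 10 called there against 1.34% of all mRNAs that fell. At 46°C GPX1 fell by 1.51 ± 0.37 and CTT1 by 0.99 ± 0.23 (adjusted p = 0.0435 and 0.0326), against 3.01% of all mRNAs that fell. All 3 calls of that arm were lost without 30°C replicate 1 or without either heated lysate (adjusted p up to 0.524). DESeq2, no filter, a minimum of 10 counts and the compared groups alone each called no member at 42°C, and DESeq2 and the compared groups alone called 1 each at 46°C.

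In the heated Polysome-seq cells most members rose at 42°C. There 9 of the 10 members rose and 1 fell, against 72.9% of all mRNAs called (38.5% rose and 34.4% fell), and the member median was 1.39 against 0.06 over all mRNAs. GPX1 had 6.56 and 6.38 TPM at 30°C, 44.3 and 36.5 TPM at 42°C, and 7.72 and 8.91 TPM at 46°C, and rose by 3.35 ± 0.17 at 42°C (adjusted p = 4.25e-07). PRX1, the mitochondrial peroxiredoxin, rose by 2.06, with 171 and 151 TPM at 42°C, against 62.2 and 64 TPM at 30°C. The rises of SOD2 (1.68), AHP1 (1.55), SOD1 (1.22), TSA2 (1.07) and TSA1 (0.81) were smaller, and that of HYR1 (0.62 ± 0.10, adjusted p = 0.000393) had the opposite sign on the TPM scale (-0.09). GPX2 alone fell, by 0.54 ± 0.11 (adjusted p = 0.00194), with 18.7 and 21.4 TPM at 42°C, against 46.5 and 48.5 TPM at 30°C. At 46°C against the same 30°C lysates 4 members rose and none fell, against 19.8% of all mRNAs that rose: CTT1, SOD1 (0.48), TSA1 (0.49) and GPX2 (0.43). The SOD1 and TSA1 calls were lost without either 30°C lysate or 46°C replicate 2 (adjusted p up to 0.249) and that of GPX2 without either 30°C lysate (up to 0.0812).

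**Figure D2:**
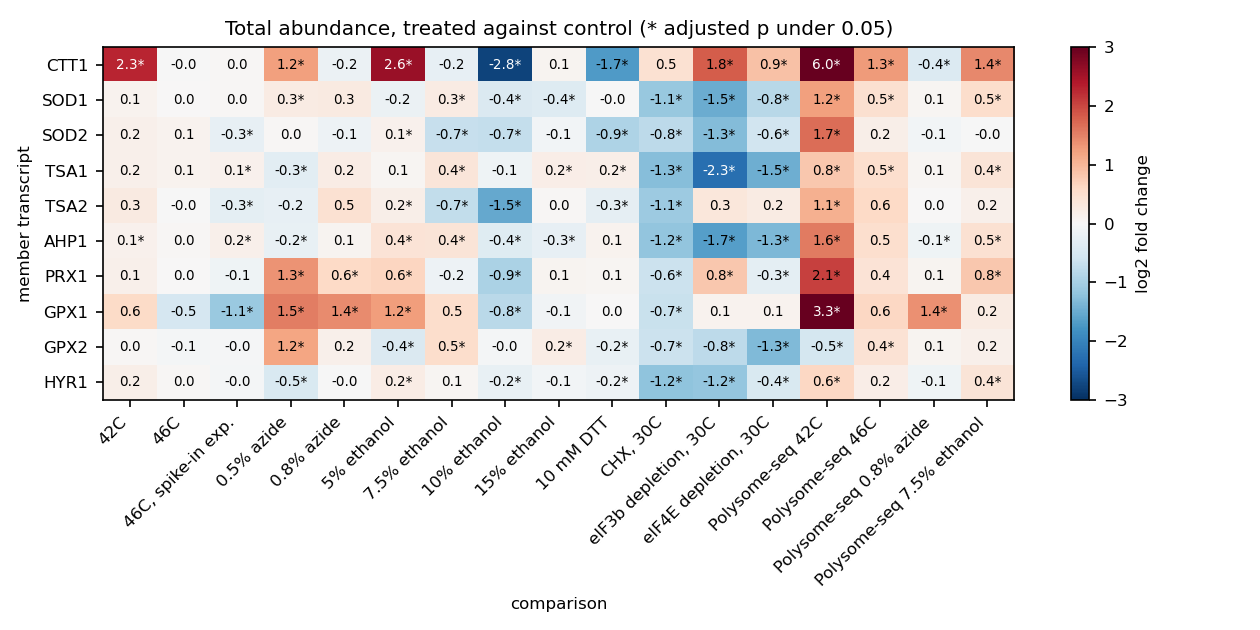
Heat map of edgeR log2 fold changes of Total abundance for the 10 members (rows) in 17 comparisons (columns), with an asterisk where the adjusted p was under 0.05 and colours that saturate at 3. CTT1 ran between -2.79 in 10% ethanol and 5.98 in medium at 42°C, and GPX2 fell by 0.54 at 42°C in medium, where the other 9 rose.

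In 0.5% azide 5 of the 10 members rose and 3 fell, against 36.8% and 34.5% of all mRNAs (71.4% called in all). Besides CTT1, PRX1 rose by 1.34 ± 0.08 (adjusted p = 1.27e-07), with 168 and 155 TPM in azide, against 55.7 and 61.2 TPM in mock cells. GPX2 rose by 1.18 ± 0.09 (adjusted p = 1.37e-06), with 173 and 197 TPM in azide, against 79.1 and 71.4 TPM in mock cells. GPX1 rose by 1.54 ± 0.38 (adjusted p = 0.00406), with 10.8 and 8.83 TPM, against 4.40 and 1.89 TPM. None of these overlapped between the groups, and SOD1 rose by less, 0.25 ± 0.06 (adjusted p = 0.00412). The abundant peroxidases went the other way: TSA1 fell by 0.31 ± 0.06, AHP1 by 0.23 ± 0.06 and HYR1 by 0.46 ± 0.07 (adjusted p = 0.000622, 0.00443 and 0.000104).

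At 0.8% azide PRX1 and GPX1 rose and none fell, 2 of 10 members, against 21.3% of all mRNAs that rose and 19.1% that fell (40.5% called in all). PRX1 had 36 and 27 TPM in azide, against 25.4 and 21.7 TPM in mock cells (0.59 ± 0.15, adjusted p = 0.0183; 0.0946 without mock replicate 2). GPX1 had 4.60 and 3.12 TPM in azide, against 1.31 and 1.86 TPM in mock cells (1.42 ± 0.35, adjusted p = 0.0152), a call lost without mock replicate 1 or azide replicate 1 (up to 0.0753). In the Polysome-seq experiment at the same dose GPX1 had 4.16 and 3.95 TPM in azide, against 1.38 and 2.03 TPM in mock cells, and rose by 1.36 ± 0.32 (adjusted p = 0.00534; 0.0572 without mock replicate 1). PRX1 there had 38.6 and 47 TPM in azide, against 38.8 and 48 TPM, which overlapped. In that experiment 3 of 10 members were called, against 44% of all mRNAs, the others being CTT1 and AHP1, which fell by 0.14 (adjusted p = 0.0388; 0.375 without mock replicate 2).

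The 5% and 10% ethanol groups shared their mock lysates, so their values are given side by side. At 5% ethanol 7 of the 10 members rose and 1 fell, against 33.8% and 39% of all mRNAs. GPX1 had 10.6 and 9.57 TPM in mock cells, 20.3 and 23 TPM in 5% ethanol, and 5.62 and 4.67 TPM in 10% ethanol, with no overlap, a rise of 1.25 ± 0.17 and a fall of 0.81 ± 0.19 (adjusted p = 3.07e-05 and 0.00422). PRX1 had 86.1 and 77.6 TPM in mock cells, 110 and 120 TPM in 5% ethanol, and 36.6 and 37.7 TPM in 10% ethanol (0.65 ± 0.07 and -0.95 ± 0.08, adjusted p = 5.24e-06 and 1.07e-06). AHP1 rose by 0.42 ± 0.08 at 5% and fell by 0.36 ± 0.08 at 10%. HYR1 rose by 0.22 at 5%, GPX2 fell by 0.43 ± 0.08 there (adjusted p = 0.000501), and the small rises of TSA2 (0.18) and SOD2 (0.14, with the opposite sign on the TPM scale at -0.02) were lost without either 5% ethanol lysate or mock replicate 2 (adjusted p up to 0.312).

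At 10% ethanol 8 of the 10 members fell and none rose, against 26.7% of all mRNAs that fell, and the member median was -0.57 against -0.02 over all mRNAs. After CTT1 the deepest fall was that of TSA2, by 1.53 ± 0.08 (adjusted p = 3.26e-08), with 42.0 and 38.4 TPM in 10% ethanol, against 136 and 126 TPM in mock cells. SOD2 fell by 0.71 ± 0.06 (adjusted p = 1.2e-06), with 252 and 261 TPM, against 486 and 465 TPM. SOD1 (fell by 0.44) and HYR1 (fell by 0.22) lost their calls without 10% ethanol replicate 1 or mock replicate 1, and HYR1 also without 10% ethanol replicate 2 (adjusted p up to 0.172). TSA1 and GPX2, at -0.13 and -0.05, were not called.

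At 7.5% ethanol, in another experiment, SOD2 and TSA2 fell and SOD1, TSA1, AHP1 and GPX2 rose, 6 of 10 members against 58.6% of all mRNAs. SOD2 had 181 and 202 TPM in ethanol, against 418 and 436 TPM in mock cells, and fell by 0.69 ± 0.07 (adjusted p = 4.69e-05). TSA2 had 72.1 and 118 TPM, against 196 and 244 TPM in mock cells, and fell by 0.75 ± 0.19 (adjusted p = 0.00818). The rises of SOD1 (0.25), TSA1 (0.37) and AHP1 (0.39) had the opposite sign on the TPM scale (-0.22, -0.10 and -0.08), while that of GPX2 (0.52 ± 0.10, adjusted p = 0.00181) kept its sign. The SOD1 call was also lost without mock replicate 2 (adjusted p = 0.0665). In Polysome-seq at that dose 6 of 10 members rose and none fell, against 30.5% of all mRNAs that rose: CTT1, PRX1 (0.80), SOD1 (0.52), AHP1 (0.46), TSA1 (0.39) and HYR1 (0.39). PRX1 had 43.6 and 41.9 TPM in ethanol there, against 34.2 and 28.1 TPM in mock cells, and in Sed-seq 34.5 and 41.6 TPM, against 54.2 and 62.6 TPM. Its Sed-seq edgeR change of -0.15 was not called. In that experiment TPM ratios sat 0.46 below the edgeR values for the median mRNA.

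At 15% ethanol 4 of 10 members were called, against 23.2% of all mRNAs. SOD1 fell by 0.38 ± 0.07 (adjusted p = 0.000349), with 377 and 471 TPM in ethanol, against 589 and 572 TPM in mock cells, and AHP1 fell by 0.25 ± 0.04. TSA1 rose by 0.21 ± 0.03, and GPX2 by 0.23 ± 0.08 (adjusted p = 0.0481), a call lost without either mock lysate or ethanol replicate 1 (adjusted p up to 0.273). DTT called 6 of 10 members, against 51.6% of all mRNAs. SOD2 had 131 and 120 TPM in DTT, against 204 and 191 TPM in mock cells, and fell by 0.93 ± 0.06 (adjusted p = 3.54e-07). TSA1 rose by 0.18 ± 0.04 (adjusted p = 0.00697), with 4163 and 4171 TPM in DTT, against 2985 and 3116 TPM, while TSA2 fell by 0.27 ± 0.06 (adjusted p = 0.00222). The falls of GPX2 (0.23) and HYR1 (0.16) had the opposite sign on the TPM scale (0.03 and 0.11) and were lost without DTT replicate 2 or mock replicate 2, and for GPX2 also DTT replicate 1 (adjusted p up to 0.226).

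The abundant peroxidases fell with cycloheximide. At 30°C 9 of 10 members fell and none rose, against 28.8% of all mRNAs that fell, where TPM ratios sat 0.63 above the edgeR values for the median mRNA. TSA1 had 1942 and 1963 TPM with cycloheximide, against 3046 and 3075 TPM in mock cells, and fell by 1.29 ± 0.08 (adjusted p = 7.28e-05). HYR1 fell by 1.21, AHP1 by 1.18, SOD1 by 1.13, TSA2 by 1.09 and SOD2 by 0.78, and each was also lower on the TPM scale. PRX1, GPX1 and GPX2 fell by 0.64, 0.67 and 0.65 in edgeR with TPM ratios of -0.01, -0.04 and -0.02, so their shares of the library lay close to those in mock cells. The TSA2 and GPX1 calls were lost without cycloheximide replicate 1 or mock replicate 2, and GPX1 also without cycloheximide replicate 2 (adjusted p up to 0.0957). CTT1 had 94.4 and 55.6 TPM with cycloheximide, against 42.7 and 28.2 TPM in mock cells, a change of 0.45 that was called only with the replicate block (0.46, adjusted p = 4.6e-05; 0.388 without it).

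With cycloheximide at 46°C 7 members fell and 1 rose, against 27.5% and 28.3% of all mRNAs. TSA1 (by 1.29), HYR1 (by 1.26), AHP1 (by 1.23), SOD1 (by 1.17) and GPX2 (by 0.78) fell, and the falls of SOD2 (0.57) and PRX1 (0.32) had the opposite sign on the TPM scale (0.12 and 0.38). GPX1 rose by 0.80 ± 0.25 (adjusted p = 0.0262), with 21.2 and 17.9 TPM with cycloheximide, against 6.20 and 8.41 TPM in mock cells. The SOD2, PRX1 and GPX1 calls were lost without mock replicate 1, and also without cycloheximide replicate 1 (PRX1 and GPX1) or 2 (SOD2 and PRX1), with an adjusted p up to 0.272. CTT1 (0.77) rose and TSA2 (fell by 0.63) moved only with the block (adjusted p = 1.42e-06 and 7.2e-06), and TSA2 had a TPM ratio of 0.06. The difference in the heat effect between drug and mock cells was called for no member by edgeR without the block (0.0177% of all mRNAs), and with it for TSA2 alone (adjusted p = 0.0339).

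After loss of an initiation factor 7 members each kept 1 direction in all 6 comparisons. CTT1 rose in 6 of 6 and SOD1, SOD2, TSA1, AHP1, GPX2 and HYR1 fell in 6 of 6 (2 strains at 30°C, 42°C and 46°C). The share of all mRNAs with 1 direction in all 6 was not taken, so this count does not set the members apart. After eIF3b depletion at 30°C 2 of 10 members rose and 6 fell, against 41.8% and 38.7% of all mRNAs, with a member median of -0.97 against 0.06. TSA1 had 898 and 954 TPM in depleted cells, against 2644 and 2789 TPM in mock cells, and fell by 2.27 ± 0.07 (adjusted p = 8.13e-11). AHP1 fell by 1.65, SOD1 by 1.48 (adjusted p = 2.44e-08), SOD2 by 1.29 and HYR1 by 1.16. GPX2 fell by 0.78 in edgeR while its TPM were close, at 105.3 and 106.5 in depleted cells and 108.7 and 110.97 in mock cells. PRX1 rose by 0.80 ± 0.15 (adjusted p = 0.000356), with 138 and 135 TPM in depleted cells, against 40.6 and 55.1 TPM in mock cells. TSA2 had 46.6 and 48.5 TPM, against 19.9 and 25.5 TPM in mock cells, called only with the replicate block (adjusted p = 0.0441; 0.0894 without it).

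With heat as well, TSA2 and GPX1 joined CTT1 and PRX1. At 42°C 4 of 10 members were higher and 6 lower in eIF3b-depleted cells, against 42.7% and 39.4% of all mRNAs, and at 46°C the split was the same, against 42.9% and 40.3%. CTT1 had 44.7 and 47.6 TPM in depleted cells at 46°C, against 3.02 and 4.88 TPM in mock cells (2.83 ± 0.20, adjusted p = 5.16e-08). TSA2 rose by 1.68 at 42°C and 1.37 at 46°C, and GPX1 by 1.12 and 0.71, the last lost without either mock lysate or depleted replicate 2 (adjusted p up to 0.14). Without the block the difference in heat effect between depleted and mock cells was called for no member by edgeR, with 2 at an unadjusted p under 0.05 at each temperature, and for 1 by DESeq2 at 42°C (0.401% of all mRNAs at 42°C and 0.157% at 46°C), and with it that of TSA2 did at both temperatures (adjusted p = 0.00515 and 0.0177) and that of CTT1 at 46°C (0.0031).

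After depletion of eIF4E, 1 member was up and 7 were down at 30°C, against 30.7% and 29.2% of all mRNAs. TSA1 had 1199 and 920 TPM in depleted cells, against 2655 and 2585 TPM in mock cells, and fell by 1.46 ± 0.12 (adjusted p = 2.6e-07). GPX2 had 61.9 and 50.7 TPM, against 128 and 126 TPM, and fell by 1.32 ± 0.09 (adjusted p = 6.77e-08). AHP1 fell by 1.34, SOD1 by 0.84, SOD2 by 0.57 and HYR1 by 0.45, and PRX1 by 0.29, a call lost without either depleted lysate or mock replicate 1 (adjusted p up to 0.354). At 42°C 2 members were higher and 7 lower in depleted cells (29.8% and 30.0% of all mRNAs), and at 46°C 1 was higher and 7 lower (29.5% and 30.6%). The TSA2 rise of 0.45 at 42°C was lost without any 1 of the 4 lysates (adjusted p from 0.0709 to 0.226), and the PRX1 fall of 0.44 there without mock replicate 1 (0.0606). PRX1 thus rose in 3 of 3 comparisons of eIF3b depletion and fell in 3 of 3 of eIF4E depletion.

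For most members sedimentation in heat was close to that of the median mRNA. At 30°C 9 of the 10 members had a median pSup between 0.911 (GPX1) and 0.950 (SOD1) over the 18 BY4741 lysates, and CTT1 had 0.845. In the heat experiment TSA1 had a pSup of 0.977 and 0.957 at 30°C, 0.867 and 0.841 at 42°C, and 0.570 and 0.536 at 46°C. SOD2 had 0.945 and 0.934 at 30°C, 0.741 and 0.735 at 42°C, and 0.355 and 0.341 at 46°C. CTT1 kept 0.805 and 0.814 at 30°C, 0.767 and 0.739 at 42°C, and only 0.172 and 0.260 at 46°C. The 3 temperatures did not overlap for any of these, and CTT1, the lowest of the family at 30°C, had a smaller drop at 42°C than the others and the lowest values at 46°C.

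The log odds of pSup (natural log) were compared with limma. At 42°C 9 of the 10 members fell, against 99.7% of all mRNAs, with a member median of -1.65 against -1.67. CTT1, at -0.33 ± 0.17, was the exception (adjusted p = 0.0758), at percentile 99.9 of all changes. At 46°C all 10 fell, with changes between -3.83 (HYR1) and -2.75 (CTT1), against 100.0% of all mRNAs, with a member median of -3.36 against -3.31. At 46°C against 42°C CTT1 changed by -2.42, at percentile 0.5 of all changes. All mRNAs of a lysate share 1 estimated mixing ratio of supernatant and pellet, so an error in it moves them together and is not covered by these p-values.

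**Figure D3:**
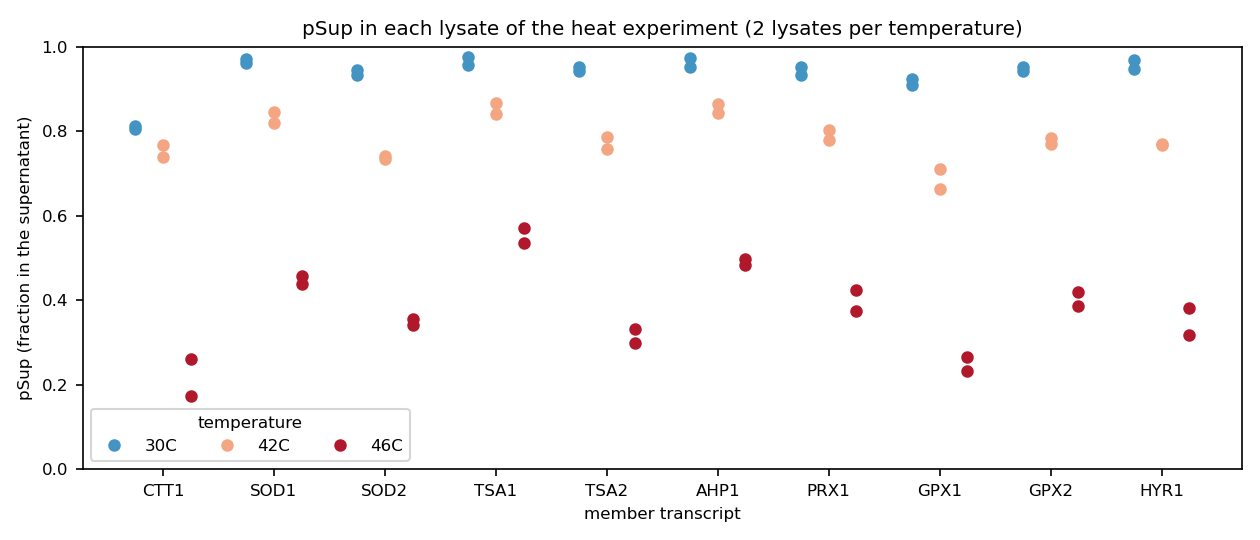
pSup (share of an mRNA in the supernatant, 0 to 1) of the 10 members in each lysate of the heat experiment at 30°C, 42°C and 46°C. CTT1 stayed at 0.767 and 0.739 at 42°C and dropped to 0.172 and 0.260 at 46°C, while TSA1 stayed highest at 46°C with 0.570 and 0.536.

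A fall of most members was also the rule in other strong stresses. All 10 fell in the second experiment at 46°C (100.0% of all mRNAs fell), where the CTT1, AHP1 and TSA1 calls were lost without 30°C replicate 1 (adjusted p up to 0.101), and in the cycloheximide mock arm at 46°C (100.0%). All 10 fell in 15% ethanol, by 2.36 to 3.31 (100.0% of all mRNAs), where CTT1 had a pSup of 0.361 and 0.284, against 0.914 and 0.890 in mock cells. In 10% ethanol 9 of 10 fell, against 97.3% of all mRNAs, TSA1 at -0.27 being the exception (adjusted p = 0.187), and in 5% ethanol none fell (1.28% of all mRNAs did). In 0.8% azide 9 of 10 fell, against 81.9% of all mRNAs (0.0592% rose and 82% were called in all), and in 0.5% azide 8 of 9, against 67.3% (68.6% called in all), with CTT1 at -0.07 and 0.11 not called in either. In DTT none of the 10 fell, against 0.217% of all mRNAs. At 7.5% ethanol 2 of 10 fell, against 51% of all mRNAs, and the member median was -0.01 against -0.45. Those were CTT1, with 0.799 and 0.766 in ethanol, against 0.889 and 0.891 in mock cells (-0.81 ± 0.20, adjusted p = 0.000284; 0.135 without ethanol replicate 2), and GPX1 (-0.55, adjusted p = 0.011), lost without either ethanol lysate (up to 0.321). Some of the calls in azide and in 10% ethanol, for GPX2, AHP1, TSA2, GPX1 and SOD1, were lost without 1 lysate (adjusted p up to 0.51), and with the mixing ratio taken from the NanoLuc spike-in RNA 0 of 10 members were called in 0.8% azide and 1 in 10% ethanol.

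With cycloheximide at 30°C the pSup of no member fell (0.0% of all mRNAs did, and 4 members with the replicate block: SOD1, SOD2, PRX1 and GPX2, adjusted p from 0.042 to 0.0463). At 46°C the drug left HYR1 at 0.564 and 0.572, against 0.445 and 0.398 in mock cells, a rise of 0.59 (adjusted p = 0.0209), and GPX1 at 0.445 and 0.319, against 0.279 and 0.0713, a rise of 1.27 (adjusted p = 0.0425). These were 2 of 10 members, against 67.8% of all mRNAs. The HYR1 call was lost without any 1 of the 4 lysates and that of GPX1 without 3 of them, all but mock replicate 1 (adjusted p up to 0.228), and with the block PRX1 and TSA1 rose as well (adjusted p = 0.0491 and 0.0397). The change with heat was less negative with the drug for 7 of 10 members, against 75.6% of all mRNAs: SOD1, SOD2, TSA1, AHP1, PRX1, GPX2 and HYR1, with TSA2 joining under the block (adjusted p = 0.0418). With the NanoLuc mixing ratio none of these drug effects at 46°C was called for any member.

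Without eIF3b even unheated lysates had lower pSup. At 30°C 9 of 10 members fell, against 92.4% of all mRNAs, and TSA1 had 0.734 and 0.655 in depleted cells, against 0.915 and 0.900 in mock cells. At 42°C all 10 were lower than in mock cells (90.3% of all mRNAs), and at 46°C 8 of 10 (96.5%), where CTT1 (-0.15) and GPX1 (-0.18) stood at percentiles 98.9 and 98.7 of all changes. The CTT1 calls at 30°C and 42°C and that of GPX1 at 42°C were lost without 2 or 3 single lysates each (adjusted p up to 0.412). In mock cells of that strain all 10 fell at 42°C and at 46°C (99.8% and 100.0% of all mRNAs), and CTT1 lost its call at 42°C without the 42°C replicate 1 (adjusted p = 0.0748). Depletion of eIF4E lowered none of 9 members tested at 30°C (0.0405% of all mRNAs), and 4 at 42°C (69.2%) and 4 at 46°C (81.8%), each lost without 2 or 3 single lysates (adjusted p up to 0.302). With the compared groups fitted alone limma called 3, 0 and 0 members at the 3 temperatures, while with the NanoLuc mixing ratio 8, 9 and 9 members fell at the 3 temperatures. In its mock cells all 9 members tested fell at both temperatures (99.7% and 100.0%), with PRX1 and CTT1 lost at 42°C without 1 lysate (adjusted p up to 0.14).

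To take mRNA length out, each log odds was also centred on mRNAs of like length in the same lysate, which removes the shared mixing ratio too. At 30°C in BY4741 7 of the 10 members sat above mRNAs of their length: TSA2 (0.42 ± 0.16, SD, n = 18), TSA1 (0.36 ± 0.21), HYR1 (0.36 ± 0.15), SOD1 (0.32 ± 0.20), AHP1 (0.27 ± 0.17), SOD2 (0.26 ± 0.11) and PRX1 (0.26 ± 0.13), in at least 17 of 18 lysates each. How many of all mRNAs lay above as often was not counted, so this does not set the 7 members apart. GPX2 (0.04 ± 0.15) and CTT1 (-0.04 ± 0.35) lay on both sides, with 11 of 18 lysates above. GPX1 (-0.22 ± 0.24, n = 16) was above in 1 lysate. In mock cells of the depletion strains at 30°C TSA2 was above in 0 of 2 lysates of yJB042 and 1 of 2 of yHG038. PRX1 was above in 2 of 2 of yJB042 and 0 of 2 of yHG038. TSA1, HYR1, SOD1, AHP1 and SOD2 were above in both lysates of each strain.

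On this scale the abundant peroxiredoxins TSA1 and AHP1 rose in 5 of 5 comparisons of heated with unheated mock cells. Within each depletion strain the comparisons at 42°C and 46°C shared their unheated lysates, so the 5 are not independent. The first heat experiment, where neither was called, is not among the 5. How many of all mRNAs rose in all 5 was not counted, so this does not set TSA1 and AHP1 apart. In the cycloheximide mock arm at 46°C TSA1 rose by 0.72, AHP1 by 0.69 and SOD1 by 0.50, 3 of 10 members against 5.3% of all mRNAs that rose. In the mock cells of the eIF3b strain TSA1 rose by 0.42 at 42°C and 0.50 at 46°C, and AHP1 by 0.41 and 0.36, where 3 of 10 members rose at each temperature, against 7.38% and 12.7%, the others being CTT1 (0.63) and PRX1 (0.30), and GPX1 fell by 0.83 at 46°C (9.09% fell). In those of the eIF4E strain TSA1 rose by 0.42 and 0.54 and AHP1 by 0.38 and 0.42, with 3 and 4 of 9 members up, against 8.46% and 14.1%, the others being PRX1 (0.40 and 0.37) and SOD2 (0.20). In the second experiment at 46°C TSA1 rose by 0.75 (adjusted p = 0.00651) and AHP1 by 0.76, with CTT1 (0.90 ± 0.07, adjusted p = 0.00605), SOD1 (0.49) and TSA2 (0.26) also up and GPX1 down by 0.53, against 15.2% of all mRNAs that rose and 12.9% that fell. In the first heat experiment neither TSA1 nor AHP1 was called at 42°C or at 46°C, and no member was at 46°C (4.73% of all mRNAs rose and 4.93% fell, 9.66% in all).

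These calls were often lost with 1 lysate fewer or with the compared groups fitted alone, where 0 and 0 members were called in the eIF3b mock cells and 1 in the eIF4E mock cells at 42°C. Of the 5 mock comparisons, TSA1 kept its call in every such fit only for the eIF4E strain at 46°C, and AHP1 only for that one and the cycloheximide arm. TSA1 at 42°C in the eIF3b strain and AHP1 at 42°C in the eIF4E strain were lost without any 1 of the 4 lysates (adjusted p from 0.0888 to 0.188 and from 0.0619 to 0.101). In the other mock comparisons TSA1 was lost without 2 or 3 of the lysates (up to 0.0799) and AHP1 without 2 (up to 0.0975). The calls of CTT1, SOD1, SOD2, PRX1 and GPX1 in these arms were lost without 3 or 4 of the 4 (up to 0.201), and in the second heat experiment TSA2 without either 46°C lysate (0.298) and SOD1 without 46°C replicate 2 (0.0524).

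In ethanol TSA1 rose at 7.5%, 10% and 15%, and AHP1 at 7.5% and 15%. At 15% TSA1 and AHP1 rose by 0.40 each, with SOD1 (0.37), SOD2 (0.24) and GPX2 (0.23) up and GPX1 down by 0.55, against 21.3% of all mRNAs that rose and 19.2% that fell. Of these TSA1 alone kept its call without any 1 lysate, AHP1 losing it without mock replicate 1 (0.0589) and the others without 2 to 4 of the lysates (up to 0.202). At 7.5% TSA1 (0.30) and AHP1 (0.26) rose and GPX1 fell by 0.34, against 23.8% and 20.2%, and at 10% TSA1 rose by 0.50 and CTT1 fell by 0.33, against 5.11% and 6.26%, each lost without 3 or 4 of the lysates (up to 0.18). No member was called at 5% ethanol (0.118% rose and 0.395% fell), in DTT (0.0% and 0.0%) or in 0.5% azide (10.7% and 14.2%, 24.9% in all) by limma, which gave CTT1 -0.39 in DTT, at percentile 1.2 of all changes, and 0.51 in 0.5% azide (adjusted p = 0.204 and 0.0566).

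CTT1 rose relative to mRNAs of its length in several comparisons. At 42°C in the heat experiment the rise was 1.35 ± 0.15 (adjusted p = 0.0303), the only one of 10 members called against 0.621% of all mRNAs that rose, and was lost without 30°C replicate 1 or either 42°C lysate (adjusted p up to 0.277), and no member was called with the compared groups fitted alone. In 0.8% azide it rose by 0.67 ± 0.12 (adjusted p = 0.0381; 0.111 without mock replicate 2), again alone, against 5.25%. In eIF3b-depleted cells against mock cells CTT1 rose by 0.46, 0.43 and 1.25 ± 0.14 at 30°C, 42°C and 46°C, and GPX1 by 0.63, 0.56 and 1.16 ± 0.20, the last value of each with an adjusted p of 7.82e-05 and 0.000952 and kept without any 1 lysate. At 30°C and 42°C both were lost without 3 of the lysates (up to 0.23). Members that rose and fell there numbered 2 and 4 at 30°C (17.8% and 21% of all mRNAs), 2 and 4 at 42°C (24.7% and 28.6%) and 3 and 2 at 46°C (26.9% and 30.9%). HYR1 fell by 0.39, 0.40 and 0.39 at the 3 temperatures and GPX2 by 0.49, 0.53 and 0.23, of which only the last GPX2 value was lost without 1 lysate (up to 0.182). The heat effect at 46°C differed between depleted and mock cells for CTT1 (0.79 ± 0.19, adjusted p = 0.0139) and TSA1 (0.79 ± 0.16, adjusted p = 0.00586), 2 of 10 members against 16.4% of all mRNAs. After eIF4E depletion none of 9 was called at 30°C (2.43% rose and 5.93% fell), 2 rose at 42°C (TSA1 0.39 and AHP1 0.36; 8.02% of all mRNAs) and 3 at 46°C (TSA1 0.52, AHP1 0.34 and GPX2 0.41; 12.7%), where TSA1 alone kept its calls without any 1 lysate and AHP1 and GPX2 were lost without 2 to 4 of them (up to 0.0958).

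**Figure D4:**
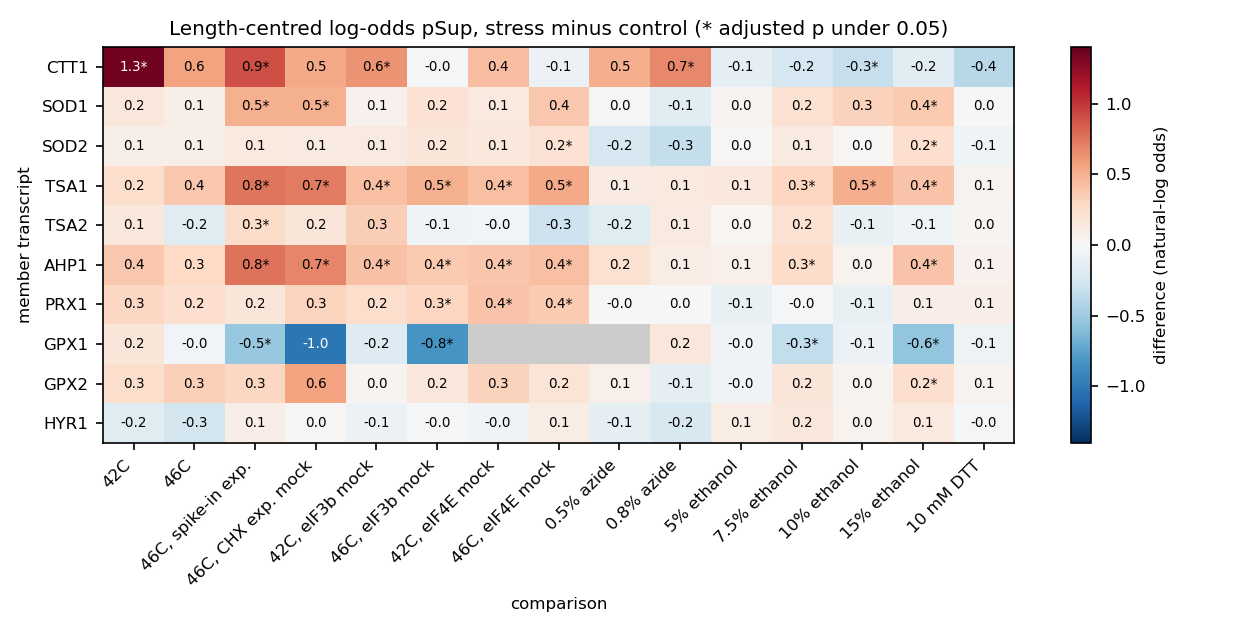
Change in length-centred log-odds pSup (natural log) for the 10 members (rows) in 15 Sed-seq comparisons (columns), with an asterisk where the adjusted p was under 0.05 and grey where a member was not tested. CTT1 had its largest rise, 1.35, in cells heated to 42°C, and GPX1 fell by 0.83 in the eIF3b mock cells at 46°C.

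Ribosome occupancy was high for most members in unstressed cells. In the heat Polysome-seq SOD1 had an occupancy of 0.958 and 0.964 at 30°C, 0.982 and 0.980 at 42°C, and 0.964 and 0.976 at 46°C, and CTT1 0.845 and 0.862, then 0.932 and 0.929, then 0.811 and 0.826. At 42°C CTT1 (0.83 ± 0.19 in natural log odds, limma adjusted p = 6.67e-05) and SOD1 (0.73 ± 0.16, adjusted p = 3.9e-05) rose and none fell, 2 of 10 members against 3.04% of all mRNAs that rose and 54.9% that fell. The member median was -0.01 against -0.46 over all mRNAs. At 46°C TSA2 (0.49) and GPX2 (0.67) rose and SOD2 fell by 0.54, against 28% and 19.3% of all mRNAs, and each call was lost without 2 or more of the lysates (adjusted p up to 0.26). In an edgeR model of polysome against Total counts, which asks whether an mRNA's share in polysomes moved with heat, 7 of 10 members rose at 46°C, against 31.1% of all mRNAs. They were TSA2 (1.14), GPX2 (1.01), AHP1 (0.99), TSA1 (0.93), SOD1 (0.84), HYR1 (0.80) and SOD2 (0.57), where the median mRNA moved by 0.17. On the plain ratio of polysome to Total TPM, SOD2 lay lower at 46°C, with 1.63 and 1.74, against 1.84 and 1.87 at 30°C. HYR1 overlapped between the temperatures on that ratio, and the other members named lay higher at 46°C. Calls of SOD1, AHP1 and SOD2 were lost without 30°C replicate 1 (adjusted p up to 0.167), and that of SOD2 also without 30°C replicate 2. At 42°C that model called SOD1 (0.73) and HYR1 (0.53), against 9.63% that rose, both lost without any 1 of the 4 lysates (up to 0.273). There 8 members were called with the compared groups fitted alone, 4 by DESeq2, 1 with DESeq2 size factors and 0 with monosomes counted as bound.

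Occupancy was lower for most members in 0.8% azide. There 9 of 10 fell and 1 rose, against 58.7% and 13.2% of all mRNAs, with a member median of -1.34 against -0.58. PRX1 had an occupancy of 0.539 and 0.517 in azide, against 0.931 and 0.907 in mock cells, and fell by 2.33 ± 0.16 (adjusted p = 7.21e-06). HYR1, the peroxide sensor, fell by 2.13, with 0.618 and 0.599 in azide, against 0.944 and 0.910. AHP1 fell by 1.80, with 0.709 and 0.707, against 0.948 and 0.922. None of these overlapped, and SOD2 (by 1.51), SOD1 (by 1.49), TSA1 (by 1.20), GPX2 (by 0.60), TSA2 (by 0.56) and CTT1 (by 0.37) fell by less. The TSA2 call was lost without azide replicate 1 (adjusted p = 0.0695) and that of CTT1 without azide replicate 2 (0.228). GPX1 stood alone in rising, by 0.83 ± 0.20 (adjusted p = 0.00385), with 0.717 and 0.735 in azide, against 0.462 and 0.608 in mock cells. On the ratio of ribosome-bound to Total RNA, which the study's methods prefer over occupancy in stressed cells because condensed RNA can sediment through the gradient, several members lay the other way, and the part of such RNA in the occupancy values was not tested. SOD1 had a ratio of bound to Total TPM of 1.33 and 1.28 in azide, against 1.05 and 1.098 in mock cells, and TSA2 had 0.942 and 1.01, against 0.708 and 0.758. AHP1 averaged 1.25 in azide and 1.06 in mock cells, and GPX2 1.44 and 1.11. The ratios of PRX1 (means of 1.03 in azide and 1.05 in mock cells), HYR1 (1.12 and 1.14) and SOD2 (1.09 and 1.08) overlapped between the groups. Those of GPX1 (1.03 and 0.84) did as well, and none of these was called. TSA1 was the 1 member of 10 whose bound-to-Total ratio was called, and it rose (0.41 ± 0.08, adjusted p = 0.00344), against 8.49% of all mRNAs that rose, with 1.52 and 1.58 in azide, against 1.04 and 1.09 in mock cells.

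**Figure D5:**
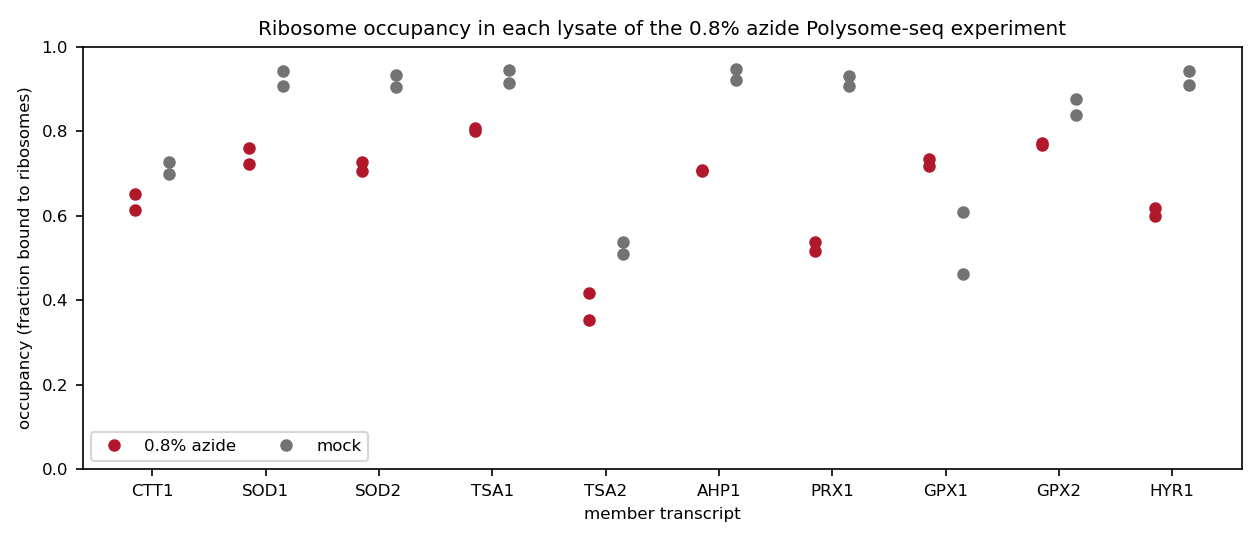
Ribosome occupancy (0 to 1) of the 10 members per lysate in 0.8% azide and in mock cells. PRX1 lay at 0.539 and 0.517 in azide, against 0.931 and 0.907 in mock cells, and GPX1 was the member that lay higher in azide, at 0.717 and 0.735.

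In 7.5% ethanol 5 of 10 members lost occupancy and none gained, against 47.9% and 2.77% of all mRNAs, with a member median of -0.51 against -0.38. PRX1 had 0.843 and 0.900 in ethanol, against 0.957 and 0.955 in mock cells, and fell by 1.14 ± 0.19 (adjusted p = 2.39e-08). CTT1 fell by 0.78, with 0.800 and 0.809, against 0.919 and 0.877, and SOD2 by 0.74, GPX1 by 0.70 and TSA2 by 0.43. The SOD2 and TSA2 calls were lost without either mock lysate and that of GPX1 without mock replicate 2 (adjusted p up to 0.531). The ratio of pooled bound to Total RNA was called for no member by edgeR, where 0.159% of all mRNAs rose and 0 members had an unadjusted p under 0.05.

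As patterns over 22 group means, centred within experiments and so with 13 free values, the members were alike in part. The 45 pairs of members had Pearson correlations of log2 CPM from -0.09 (CTT1 with TSA1) to 0.87 (AHP1 with HYR1), with a median of 0.46 and 21 pairs above 0.5. PRX1 and GPX1 correlated at 0.85, and SOD2 and TSA2 at 0.82. Among 5440 mRNAs the nearest to CTT1 was TKL2, a transketolase (0.93), to GPX1 the glycogenin gene GLG1 and the glycogen synthase gene GSY2 (0.96 and 0.95), and to PRX1 TDA10, the glutaredoxin gene GRX2 and UGA2, each at 0.96. TSA2 was nearest to ARA1 (0.93), SOD2 to the cyclin gene CLN3 (0.92), HYR1 to CDC48 (0.92), TSA1 to DUG1 (0.92), SOD1 to ARC40 (0.94), AHP1 to BNA1 (0.90) and GPX2 to RCF2 (0.90). The points share libraries and control lysates, and the values are descriptions. No share above 0.5 was taken over pairs of other mRNAs, so the count of pairs does not set the family apart.

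A list of 28 other antioxidant genes (thioredoxins, glutaredoxins, glutathione enzymes, the peroxisomal catalase CTA1, CCP1, SRX1 and others) gives the setting. In 0.5% azide 9 of 27 rose and 10 fell, against 36.8% and 34.5% of all mRNAs. There CTA1 was at 3.41, the sulphiredoxin gene SRX1 at 2.03 and the cytochrome c peroxidase gene CCP1 at 1.58. CTA1 also rose in 0.8% azide (3.89 in Sed-seq and 3.09 in Polysome-seq). In 10% ethanol 4 of 28 rose and 14 fell, against 26.7% of all mRNAs that fell, with SRX1 down by 1.08 and GRX2 by 0.97. Cycloheximide at 30°C moved 3 up and 18 down, against 28.8% of all mRNAs that fell, with the glutathione transferase gene GTT2 up by 1.23. After eIF3b depletion at 30°C 10 rose and 16 fell, against 41.8% and 38.7% of all mRNAs, with GTT2 (2.61), CTA1 (2.21) and SRX1 (2.01) up. In medium at 42°C 12 rose and 6 fell, against 38.5% and 34.4% of all mRNAs, with OYE3 at 3.9, SRX1 at 2.75 and CTA1 at 2.14. At 46°C in the first heat experiment none was called (0.44% of all mRNAs were). In DTT 12 rose and 7 fell, against 51.6% of all mRNAs called in either direction, with CCP1 down by 2.17. Occupancy fell for 20 of 26 of these genes in azide and rose for 2, against 58.7% and 13.2% of all mRNAs. Their median was -1.25, against -0.58 over all mRNAs.

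With 1 lysate each, the 7 reporter strains at 30°C gave CTT1 15.6 to 25.9 TPM with a pSup of 0.776 to 0.822, and TSA2 437 to 650 TPM. In the single lysates at 42°C CTT1 had 65.9 TPM and a pSup of 0.662 with cycloheximide, against 52 TPM and 0.632 in mock cells. These values have no replicate.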

How the data were processed

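The 279 libraries comprised 77 lysates by Sed-seq (12 experiments) and 14 by Polysome-seq (3 experiments). Total counts per library ranged between 2222970 and 30761624 in Sed-seq Total RNA (median 8601145) and between 9430520 and 28892474 in Polysome-seq Total RNA. Each group had 2 lysates, which limits the precision. The authors trimmed reads with Trim Galore (0.6.10), aligned them to R64 with STAR (2.7.10b), collapsed molecular identifiers with UMI-tools (1.1.4) in the experiments that carried them, and deposited estimated counts and TPM from kallisto (0.48.0) for each mRNA. Deposited pSup is the fraction of an mRNA in the supernatant, after supernatant and pellet were scaled to Total by mixing ratios, and deposited occupancy is the fraction bound to ribosomes, computed by the authors from S. pombe spike-in normalized signal of the gradient fractions. Other deposited columns hold lengths, coordinates and the target label. The authors' fold changes and sedimentation scores were not used.

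Estimated counts were rounded and compared with edgeR (4.0.16, quasi-likelihood test, TMM, filterByExpr), over all mRNAs, with all groups of an experiment in 1 fit. The natural log odds of pSup (supernatant plus pellet counts of 20 or more required), the same after centring on a running window that spanned 0.02 of all log lengths, and the log odds of occupancy were compared with limma (3.58.1, trend). Polysome and Total counts were compared in an edgeR interaction model. Adjusted p-values are Benjamini-Hochberg over all mRNAs. The steps were tested on simulated data. DESeq2 (1.42.0), other filters, scalings, length corrections, sample sets, the replicate block and fits without 1 lysate were alternatives.

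The replicate numbers paired lysates, by correlation of their deviations from group means above 0.1 in every pair, in Total RNA of the heat (0.141 to 0.170), cycloheximide (0.358 to 0.672) and eIF3b (0.122 to 0.345) experiments and in the cycloheximide pSup (0.110 to 0.586). All 10 members are named in every result. Of the other antioxidant genes the largest 3 changes called in a comparison could be named, and for likeness the 3 mRNAs with the highest correlation. The members and lists were chosen with earlier results of these data known.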

Additional observations from a re-analysis of the deposited data

Results flagged for a closer look

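Heat lowered pSup less with cycloheximide than in mock cells for 7 members, by a limma test of that difference at 46°C in natural log odds. It was 1.19 for HYR1 (adjusted p = 0.00778), 1.04 for PRX1 (0.00996), 0.98 for SOD2 (0.00914), 0.96 for TSA1 (0.0181), 0.79 for AHP1 (0.0150), 0.75 for SOD1 (0.0395) and 0.69 for GPX2 (0.0466), where 75.6% of all mRNAs rose and the median mRNA moved by 0.91. The calls of TSA1, SOD1 and GPX2 were lost without 4, 5 and 5 of the 8 lysates and that of AHP1 without cycloheximide 30°C replicate 1 or mock 46°C replicate 2 (adjusted p up to 0.159). With the NanoLuc mixing ratio, which moved the median mRNA by -0.78, none was called. On the length-centred scale the heat effect at 46°C differed between eIF3b-depleted and mock cells by 0.79 for CTT1 and 0.79 for TSA1 (adjusted p = 0.0139 and 0.00586).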

How the results depend on the processing

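Of the values of single members under alternatives other than leaving out a lysate, 1821 of 1892 kept their direction and their side of the threshold for Total abundance, 1228 of 1312 for pSup, 1549 of 1614 for length-centred pSup, 95 of 100 for occupancy and 195 of 210 for the bound-to-Total ratio. Calls lost in some fit without 1 lysate numbered 33 of 147, 32 of 169, 41 of 60, 8 of 20 and 5 of 10 in the same order. DESeq2 called 1 member for Total abundance at 46°C against 42°C (edgeR 2), 2 in 15% ethanol (4), 1 and 2 in eIF3b mock cells at 42°C and 46°C (0 and 0), 1 for the eIF3b heat difference at 42°C (0), 0 and 1 in eIF4E mock cells at 42°C and 46°C (1 and 2), and 4 for the ratio at 42°C (2), where DESeq2 size factors gave 1, monosomes counted as bound 0 and the compared groups alone 8. With no filter or at least 10 counts 0 members were called in eIF4E mock cells at 42°C, and with at least 10 counts 4 in 0.8% azide (2). The compared groups alone gave 0 and 1 in eIF4E mock cells for abundance. For length-centred pSup they gave 0 at 42°C in the heat experiment (1), 1 in 10% ethanol (2), 0 and 0 in eIF3b mock cells (3 and 4) and 1 in eIF4E mock cells at 42°C (3), and for pSup 6 with cycloheximide at 46°C (2) and 3, 0 and 0 after eIF4E depletion (0, 4 and 4). At least 100 counts gave 1 at 46°C (0), 2 in 0.5% azide (0) and 1 for the eIF4E heat difference at 46°C (0), and open reading frame length 2 in 0.5% azide, 5 in 7.5% ethanol (3) and 1 for that difference. The cause of these moves was not tested.

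With the replicate block, members called for abundance numbered 5 in 0.8% azide (2), 3 in cycloheximide mock cells at 46°C (0), 1 for the drug's heat difference (0), 1 and 3 in eIF3b mock cells (0 and 0) and 1 and 2 for the eIF3b heat differences (0 and 0). For pSup it gave 0 in 7.5% ethanol (2), 4 with cycloheximide at 30°C (0) and 4 at 46°C (2). For length-centred pSup it gave 0 at 42°C in the heat experiment (1), where CTT1 had an adjusted p of 0.0653, 1 in 0.5% azide (0), 2 in 0.8% azide (1), 1 in 10% ethanol (2), 2 with cycloheximide at 46°C (0) and 5 in its mock cells (3), and for occupancy 6 at 46°C (3). Outside the experiments named as paired, lysates shared only a number. With crossed numbers, an alternative chosen after seeing the data because same-numbered lysates deviated in opposite directions, 10 members were called for pSup in 15% ethanol and 0 for the bound-to-Total ratio in 7.5% ethanol.

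The NanoLuc mixing ratio gave 0 members in 0.8% azide (9), 1 in 10% ethanol (9), 4 in 7.5% ethanol (2), 0 with cycloheximide at 46°C (2), 0 for its heat difference (7), 5 for the eIF3b heat difference at 46°C (0) and 8, 9 and 9 after eIF4E depletion (0, 4 and 4). It moved the median mRNA by between -0.78 (the cycloheximide heat difference) and 0.71 (15% ethanol), and turned the drug effect of HYR1 at 46°C to -0.0889 and the heat differences of SOD1 and GPX2 to -0.0314 and -0.0988. Without ethanol replicate 1 the occupancy changes of SOD1 and TSA1 in 7.5% ethanol turned to 0.268 and 0.198, past the threshold, against -0.308 and -0.494 without ethanol replicate 2.

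Without 1 lysate, counts of members called for abundance ran between 1 and 1 at 42°C, 0 and 1 at 46°C, 1 and 3 at 46°C against 42°C, 3 and 5 in the second experiment at 46°C, 2 and 4 in 0.8% azide, 5 and 8 with cycloheximide at 46°C, 0 and 1 and then 0 and 2 in eIF4E mock cells, 0 and 10 in Polysome-seq at 46°C and 1 and 6 in Polysome-seq in azide. For pSup they ran between 0 and 2 in 7.5% ethanol, 0 and 1 in DTT, 0 and 1 with cycloheximide at 46°C, 3 and 9 for its heat difference and 0 and 7 after eIF4E depletion at 42°C and at 46°C. For length-centred pSup they ran between 0 and 2 at 42°C, 0 and 3 at 46°C, 0 and 1 in 0.8% azide and in 10% ethanol, 1 and 2 in 7.5% ethanol, 1 and 5 in 15% ethanol, 0 and 2 with cycloheximide at 46°C, 1 and 3 in its mock cells, 2 and 3, 2 and 5, and 3 and 5 after eIF3b depletion at the 3 temperatures, 0 and 2 in its mock cells at both, 1 and 3 after eIF4E depletion at 42°C and 46°C, 0 and 1 and then 2 and 2 in its mock cells, and 0 and 1 for its heat difference at 46°C. The bound-to-Total ratio gave 0 and 0 at 42°C and 4 and 8 at 46°C, and occupancy 1 and 2 at 46°C and 2 and 9 in 7.5% ethanol. GPX1, read from 8 counts upwards, is where depth limits most.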
